A study of Mus musculus with 16 samples.

Results

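The 10 genes described here encode regulators of paraxial mesoderm, epicardium and mesenchyme: the growth factor receptors Pdgfra and Pdgfrb and the transcription factors Foxc1, Tcf15, Meox1, Meox2, Tbx18, Wt1, Tcf21 and Prrx1. They were picked by gene symbol, with earlier results of these data known, as 10 of the 23282 named loci used, and each was found at 1 locus with the same identifier in the count table and the FPKM table. Of the 10, 9 passed the filter on low counts, and Meox2 did not. RNA was sequenced from embryoid bodies, the floating aggregates formed by embryonic stem cells, at day 6 of SFEBq culture, a serum-free method that favours retinal and forebrain tissue. All groups grew in GMEM medium with 5% KSR, a serum replacement, and received 2% Matrigel, a basement membrane extract, on day 1.

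Paraxial mesoderm lies beside the neural tube and divides into somites, from which axial skeleton, skeletal muscle and dermis arise. Tcf15, Meox1 and Meox2 act in the somites, and Foxc1 acts in the presomitic mesoderm, somites and head mesenchyme. The epicardium is the outer cell layer of the heart. Tbx18, Wt1 and Tcf21 are its classical transcription factors, and its cells can give rise to fibroblasts and to the mural cells that wrap vessels. Prrx1 is a homeobox factor of limb and craniofacial mesenchyme. Platelet-derived growth factors signal through the tyrosine kinase receptors Pdgfra, found in early mesoderm, primitive endoderm, neural crest and fibroblast progenitors, and Pdgfrb, found in pericytes and smooth muscle precursors. No gene of this set marks a single tissue, since Wt1 also acts in the kidney and gonad, Tcf21 in kidney and lung mesenchyme, and Pdgfra in oligodendrocyte precursors.

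All 4 groups derived from a mouse embryonic stem cell line with GFP knocked in at Rx, the eye field gene Rax. They were untreated wild-type cells (WT), Wdr5 knockout cells without doxycycline (KO), and Wdr5 knockout cells given doxycycline, which switches on human WDR5, from the time labelled T12h or T48h (called T12h and T48h, the early and the late rescue). Wdr5 encodes a WD40-repeat subunit of the histone H3 lysine methyltransferase complexes of the COMPASS/MLL family. The series title names 1 knockout clone, so effects of the knockout and of that clone cannot be told apart. Neither can effects of WDR5 and of doxycycline, because the labels give no group with doxycycline alone.

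Each group had 2 biological duplicates, each sequenced in 2 technical runs, which gave 8 libraries after the runs were summed, called a and b within a group with no order between them. They held 32476672 to 65687435 counts in named genes. Nothing in the labels says that duplicates came from separate cultures, so the spread behind the p-values is that between these libraries and may be technical. Wdr5 lay at 28.4 and 32.5 CPM (counts scaled by TMM library size) in KO, at 186 and 187 in WT, and at 280 to 337 in the rescues. The rescue values may hold reads of human WDR5 assigned to the mouse locus, so they are not on 1 scale with WT. Rax lay at 192 to 223 CPM across WT and T12h and at 0.245 to 0.820 across KO and T48h. The eye field marker of this culture was thus near 0 in KO and T48h. In bulk RNA, fewer cells of a type and less RNA per cell cannot be told apart. Folds below are log2 fold changes with their standard error (SE) from a single edgeR quasi-likelihood fit of all 4 groups, with Benjamini-Hochberg adjustment over 16130 genes and a threshold of 0.05.

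In both T48h libraries, 8 of the 10 genes lay above all 6 other libraries, which held for 19.4% of all genes tested. The exceptions were Tcf15, which had its lowest mean there with libraries that overlapped those of T12h, and Meox2, which had 0 counts there. Of the 8, Meox1 and Tbx18 passed the filter on low counts only through their T48h libraries. The 8 genes lay at very unequal levels. On the FPKM scale, which divides by transcript length, T48h means ran from 66.8 for Pdgfra through 14.3 for Pdgfrb, 9.91 for Tcf21, 3.31 for Foxc1, 2.45 for Prrx1 and 0.880 for Wt1 to 0.339 for Tbx18 and 0.206 for Meox1. In WT the order was Pdgfra at 14.1, Tcf15 at 2.14, Pdgfrb at 1.49 and Prrx1 at 1.34, with all others below 0.4 FPKM. Pdgfra alone held 67.3% and 67.6% of the summed FPKM of the 10 genes in T48h, and 87.4% and 90.9% in KO.

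**Figure D1:**
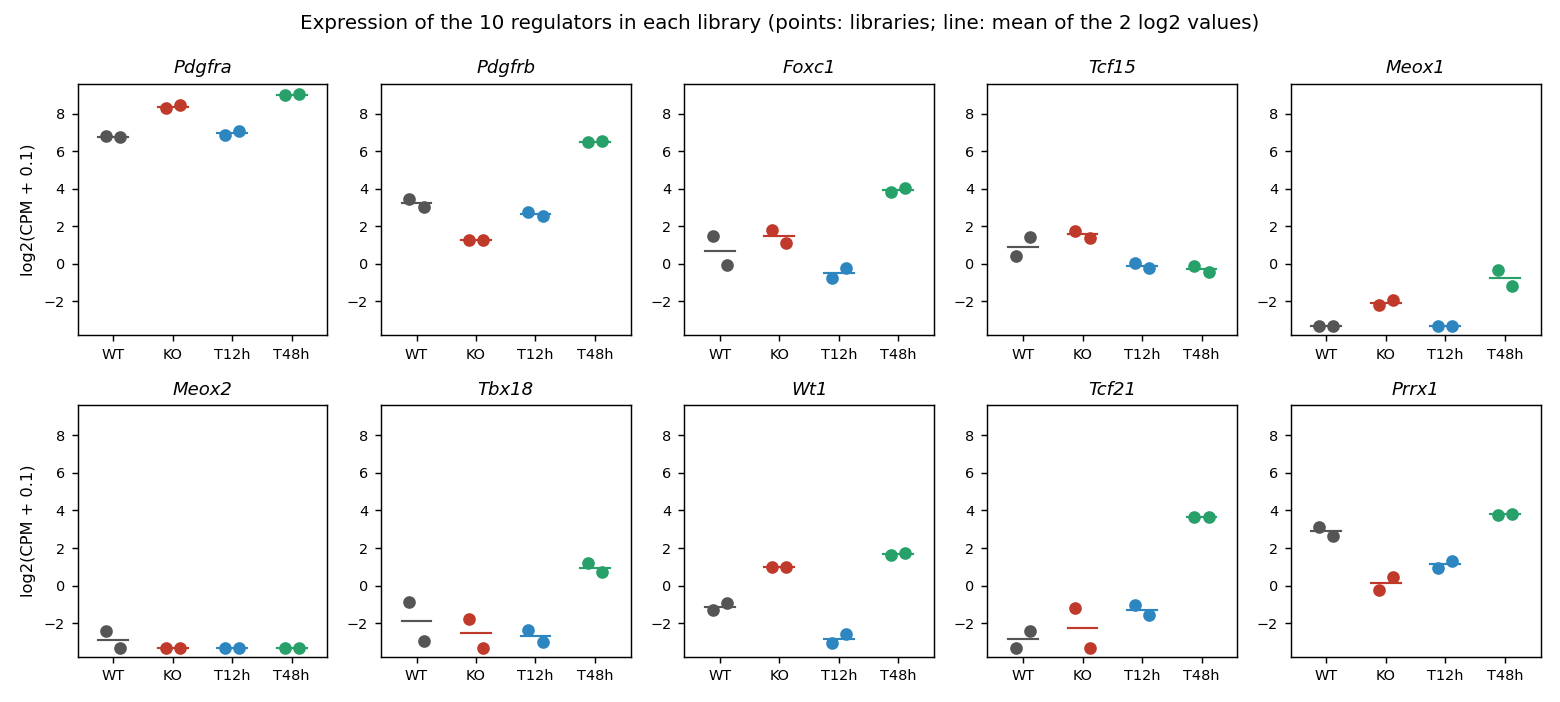
Expression of each of the 10 regulators on the scale of log2(CPM + 0.1), with 1 point per library, 2 libraries per group, and a line at the mean of the 2 log2 values. The T48h points are the highest in 8 panels, Tcf15 is lowest in both rescues, and Meox2 lies at the floor in 7 of 8 libraries.

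The upstream sequences of members that rose together in T48h against KO are shown to compare their base composition. RefSeq promoter windows were matched for 6 of the 10 genes (build GRCm38.p6), and 5 of these 6, Pdgfra, Foxc1, Tbx18, Tcf21 and Prrx1, rose. The 250 bases before each start are printed 5′ to 3′ on the gene's strand, with CG dinucleotides in capitals. They lie at chr5:75152001-75152250 on the plus strand for Pdgfra, chr13:31806396-31806645 on the plus strand for Foxc1, chr9:87731261-87731510 on the minus strand for Tbx18, chr10:22820144-22820393 on the minus strand for Tcf21 and chr1:163313651-163313900 on the minus strand for Prrx1.
Pdgfra: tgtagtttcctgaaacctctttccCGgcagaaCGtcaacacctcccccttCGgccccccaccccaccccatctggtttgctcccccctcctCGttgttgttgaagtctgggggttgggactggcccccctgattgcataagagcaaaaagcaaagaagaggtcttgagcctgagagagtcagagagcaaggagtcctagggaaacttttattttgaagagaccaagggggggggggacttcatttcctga
Foxc1: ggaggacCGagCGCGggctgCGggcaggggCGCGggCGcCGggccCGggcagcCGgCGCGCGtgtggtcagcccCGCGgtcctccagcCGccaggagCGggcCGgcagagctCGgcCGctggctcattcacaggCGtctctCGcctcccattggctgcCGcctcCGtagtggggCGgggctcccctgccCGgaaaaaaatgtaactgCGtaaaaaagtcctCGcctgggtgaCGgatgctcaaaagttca
Tbx18: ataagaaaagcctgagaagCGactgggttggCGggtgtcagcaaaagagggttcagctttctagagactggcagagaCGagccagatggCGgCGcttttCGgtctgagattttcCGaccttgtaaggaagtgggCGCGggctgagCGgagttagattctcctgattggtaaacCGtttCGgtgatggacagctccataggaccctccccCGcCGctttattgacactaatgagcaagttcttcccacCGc
Tcf21: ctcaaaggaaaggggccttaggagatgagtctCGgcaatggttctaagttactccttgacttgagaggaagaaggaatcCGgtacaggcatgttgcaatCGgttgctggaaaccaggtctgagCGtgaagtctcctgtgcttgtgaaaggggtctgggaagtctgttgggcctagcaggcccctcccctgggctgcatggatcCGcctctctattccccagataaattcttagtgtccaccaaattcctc
Prrx1: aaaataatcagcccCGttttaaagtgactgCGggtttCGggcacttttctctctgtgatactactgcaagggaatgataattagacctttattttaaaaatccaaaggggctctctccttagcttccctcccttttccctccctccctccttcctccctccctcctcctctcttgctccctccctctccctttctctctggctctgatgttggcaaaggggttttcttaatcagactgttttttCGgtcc

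The windows did not share a CG content. The Foxc1 window held 29 CG dinucleotides, more than 93.2% of 32851 RefSeq windows of that length, whose median was 6. The Tbx18 window held 15, more than 72.7% of windows, and those of Tcf21, Pdgfra and Prrx1 held 5, 4 and 4. The E-box letters CANNTG, to which basic helix-loop-helix factors such as Tcf15 and Tcf21 can bind, occurred once each in the Pdgfra and Tbx18 windows and in none of the other 3, against 66.2% of all windows with a match (a palindrome, so both strands are covered). The letters CCAAT, searched on both strands, occurred in the Foxc1 and Tbx18 windows and in 33.8% of all windows. The letters TATAAA occurred in none of the 5 printed windows and in 12.4% of all, and GGGCGG occurred in that of Foxc1 and in 32.7% of all, both searched on both strands. These matches describe the letters only.

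The PDGF receptors were the most abundant members in T48h, and they moved in opposite directions in KO against WT. Pdgfra (5:75152291-75198215, plus strand, mm10, up to 23 exons) lay at 112 and 107 CPM in WT, 314 and 348 in KO, 117 and 137 in T12h and 506 and 530 in T48h. Pdgfrb (18:61045150-61085067, plus strand, up to 24 exons) lay at 10.8 and 8.10 CPM in WT, 2.34 and 2.32 in KO, 6.59 and 5.71 in T12h and 89.1 and 93.4 in T48h. For Pdgfra KO and T48h libraries were both high, whereas for Pdgfrb KO was the lowest group and T48h alone was high. In KO against WT, Pdgfra rose by 1.60 ± 0.09 (SE, adjusted p = 3.9e-09) and Pdgfrb fell by 2.02 ± 0.17 (adjusted p = 2.61e-07).

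After early induction of WDR5 both receptors lay closer to WT than KO did. In T12h against KO, Pdgfra fell by 1.38 ± 0.09 (adjusted p = 1.37e-08) and Pdgfrb rose by 1.40 ± 0.17 (adjusted p = 8.62e-06). Against WT, Pdgfra then differed by 0.22 ± 0.09 (adjusted p = 0.107), and Pdgfrb was lower by a log2 fold change of -0.62 ± 0.16 (adjusted p = 0.0178). That Pdgfrb call was lost without WT library a (adjusted p = 0.264) and without T12h library b (0.135), with 1 technical column per library (0.0906) and by limma on log2(FPKM + 1) or log2(FPKM + 0.1) (0.121 and 0.128).

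Both receptors were highest after late induction. Against KO, Pdgfra rose by 0.65 ± 0.08 (adjusted p = 1.53e-05) and Pdgfrb by 5.29 ± 0.18 (adjusted p = 3.69e-11). Against WT the rises were 2.25 ± 0.09 for Pdgfra (adjusted p = 2e-10) and 3.27 ± 0.16 for Pdgfrb (adjusted p = 1.38e-09). The FPKM ratio of Pdgfra to Pdgfrb was 8.47 and 10.8 in the WT libraries, 110 and 123 in KO, 14.6 and 19.8 in T12h, and 4.67 in each T48h library. The ratio was highest in KO and lowest in T48h, with no overlap between those groups and the rest.

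The 4 PDGF ligands did not share a pattern, with 3 higher and 1 lower in T48h against KO and a median of 1.00. Pdgfa, the ligand with the highest CPM, which binds Pdgfra, averaged 29.3 CPM in WT, 64.4 in KO, 27.6 in T12h and 24.7 in T48h. It rose with Pdgfra in KO against WT (1.14 ± 0.12, adjusted p = 2.43e-06), but fell in T48h against KO (-1.38 ± 0.12, adjusted p = 3.35e-07), where Pdgfra rose. Pdgfb, which binds both receptors, rose in T48h against KO by 1.31 ± 0.28 (adjusted p = 0.000971), from 3.28 to 8.13 CPM. Pdgfc rose there by 0.94 ± 0.23 (adjusted p = 0.0032), from 4.71 to 9.02 CPM. Pdgfd, a ligand of Pdgfrb, averaged 2.35 CPM in KO, 7.72 in T12h and 4.92 in T48h, and it rose in T12h and T48h against KO by 1.71 ± 0.32 (adjusted p = 0.000361) and 1.07 ± 0.32 (adjusted p = 0.00919).

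**Figure D2:**
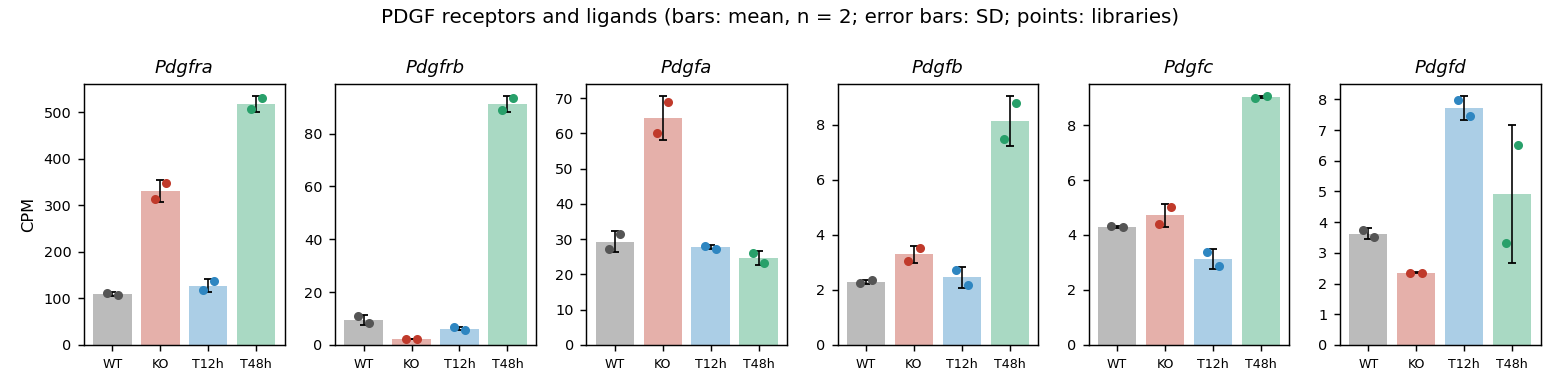
CPM of the 2 PDGF receptors and the 4 ligands by group, each panel with its own linear axis from 0 (bars: means of 2 libraries, error bars: SD, points: libraries). Pdgfa is highest in KO at 64.4 CPM, while Pdgfrb, Pdgfb and Pdgfc are highest in T48h.

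Pericytes and smooth muscle cells carry Pdgfrb, and their markers moved only in part with it. Of 10 such markers, 9 were tested. In T48h against KO, 4 rose (Rgs5, Des, Acta2 and Cnn1), 1 fell (Notch3) and the median was -0.05. Of all genes, 34.2% rose and 33.2% fell in that comparison, and 31.7% rose and 32.4% fell in KO against WT. The counts of every list in these comparisons are to be read beside these shares. Rgs5, a pericyte gene, averaged 20.2 CPM in KO and 392 in T48h, and Acta2, the smooth muscle actin, 13.8 and 420. The summed level of the list was 369 and 365 CPM in KO and 1242 and 1267 in T48h. Kcnj8, a pericyte channel, had 0 counts in both rescues. Of 15 primitive endoderm markers, a tissue that carries Pdgfra, 12 rose and 2 fell in KO against WT, with a median of 1.83, and 4 rose and 11 fell in T48h against KO, with a median of -1.81. Their summed level was 5912 and 5935 CPM in WT, 22474 and 23334 in KO, 9524 and 10201 in T12h and 3487 and 3821 in T48h, and none of the 15 was at 0 in any group. The sum was carried mostly by matrix genes, of which Col4a1 averaged 9902 CPM in KO and 1223 in T48h. The 4 that rose in T48h against KO were the transcription factors Gata6, Gata4 and Sox7 and the apolipoprotein gene Apoa1. The transcription factors Sox17 and Foxa2 were among the 11 that fell, from 149 to 24.7 CPM and from 40.4 to 7.76 CPM. Gata4 is also on the lateral plate and cardiac list given below. Gata6 averaged 23.8 CPM in WT, 121 in KO and 31.9 in T12h, and lay at 244 and 254 in the T48h libraries. Gata4 averaged 60.2, 216, 86.3 and 275 CPM. Both had the same order of groups as Pdgfra. In T48h against WT, 6 of the 15 rose and 5 fell, with a median of 0.31. The part of these cell types in the receptor values was not tested.

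The epicardial factors were nearly silent outside T48h, except Wt1 in KO. Tcf21 (10:22817275-22820128, minus strand, 2 exons), a helix-loop-helix factor that epicardial cells need to become fibroblasts, had 0 and 3 counts in WT, 23 and 0 in KO, 21 and 11 in T12h, and 455 and 509 in T48h. In CPM T48h libraries lay at 12.4 and 12.5, and no other library exceeded 0.389. Tcf21 rose by 5.95 ± 0.73 in T48h against KO (adjusted p = 9.13e-06) and by 5.27 ± 0.70 against T12h (adjusted p = 3.33e-05). Against the 3 counts of WT the ratio was 289, with a 95% counting interval of 98.6 to 1405 (exact binomial; intervals cover counting error only). The KO value came from library a alone, and KO and WT did not differ past the threshold (adjusted p = 0.134, or 0.0124 with no filter on low counts and 0.00809 without KO library b; ratio 5.08, counting interval 1.53 to 26.4).

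Tbx18 (9:87702800-87731260, minus strand, 8 exons), a T-box factor of the epicardium and of the anterior part of each somite, had 16 and 1 counts in WT, 13 and 0 in KO, 5 and 1 in T12h and 81 and 62 in T48h. The T48h libraries were the only ones above 0.444 CPM, at 2.21 and 1.52. Tbx18 rose by 4.08 ± 1.21 against KO (adjusted p = 0.00913) and by 4.91 ± 1.30 against T12h (adjusted p = 0.00674). The latter call was lost without T12h library b (adjusted p = 0.0661), and the difference from WT (2.95 ± 1.15) had an adjusted p of 0.0504. That difference passed under 8 of 14 other settings, among them DESeq2 (0.034) and the fit without WT library a (0.0348), over a range of 0.00401 to 0.299. The counts of the other 3 groups were uneven between libraries, and their differences from one another did not pass.

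Wt1 (2:105126529-105173614, plus strand, 10 exons), a zinc finger factor of epicardium, kidney and gonad, had a different order. It had 11 and 14 counts in WT, 131 and 70 in KO, 1 and 3 in T12h and 110 and 133 in T48h. Its CPM were 0.305 and 0.415 in WT, 1.92 and 1.89 in KO, 0.019 and 0.066 in T12h and 3.00 and 3.26 in T48h, so that no pair of groups overlapped. Wt1 rose in KO against WT by 2.40 ± 0.54 (adjusted p = 0.00172) and fell in T12h against KO by 5.45 ± 0.68 (adjusted p = 1.22e-05). T48h was higher than WT by 3.11 ± 0.55 (adjusted p = 0.000403) and differed from KO by 0.72 ± 0.48 (adjusted p = 0.204; 0.00611 by limma on log2(FPKM + 1)). T12h was also below WT (-3.06 ± 0.73, adjusted p = 0.0144), a call lost without WT library b (0.0705), without T12h library a (0.121) and by limma on log2(FPKM + 1) or log2(FPKM + 0.1) (0.241 and 0.0573).

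Other genes of the epicardial layer were higher in T48h, though not all. Of 12 epicardial genes fixed as a list, 11 were tested. Against KO, 7 rose and 1 fell, where 34.2% of all genes rose and 33.2% fell. The list's median was 1.98, where the median of all genes was 0.00. Gata5, a zinc finger factor, averaged 0.559 CPM in KO and 164 in T48h (8.23 ± 0.16, adjusted p = 9.38e-13). Bnc1, basonuclin, averaged 3.96 and 109 CPM (4.73 ± 0.26, adjusted p = 3.9e-09), and Upk3b, a uroplakin of mesothelial cells, 0.262 and 25 CPM (6.70 ± 0.53, adjusted p = 1.2e-07). Lrrn4, another mesothelial gene, averaged 36.6 and 144 CPM and rose by 1.98 ± 0.12 (adjusted p = 1.28e-08). Aldh1a2, the retinoic acid enzyme, averaged 0.244 and 2.33 CPM and rose by 3.28 ± 0.57 (adjusted p = 0.000202), to a level near the 2.73 CPM of WT. Msln, mesothelin, had 0 counts in T48h, and Gpm6a, a membrane glycoprotein, fell by 0.79 on the log2 scale (adjusted p = 0.0155). In KO against WT the list split evenly, with 4 genes higher (Bnc1, Lrrn4, Bnc2 and Upk1b) and 4 lower (Aldh1a2, Gpm6a, Sema3d and Rspo1).

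Wt1, Tcf21 and Osr1 also serve the kidney and gonad, so genes of the intermediate mesoderm were listed too. Of 13, 12 were tested, and in T48h against KO 2 rose (Gdnf and Podxl), 6 fell and the median was -0.48. In T48h against WT, 5 were higher and 6 lower, with a median of -0.98, where 23.9% of all genes were higher and 23.4% lower. Pax2, which is also an optic stalk gene, averaged 134 CPM in WT, 5.73 in KO, 197 in T12h and 1.22 in T48h. Nphs1, nephrin of the kidney podocyte, rose with Wt1 in KO against WT (0.848 to 4.22 CPM, 2.31 ± 0.49, adjusted p = 0.00135) and had 0 counts in T48h, where Wt1 was highest. Podxl, a podocyte surface protein found on many epithelia, rose by 0.96 ± 0.07 in KO against WT (adjusted p = 4.04e-08) and by 1.23 ± 0.07 in T48h against KO (adjusted p = 2.86e-09).

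The somite factors were low throughout and did not share a direction. Tcf15 (2:152143609-152149096, plus strand, 2 exons), also called paraxis, lay at 1.25 and 2.55 CPM in WT, 3.30 and 2.54 in KO, 0.925 and 0.749 in T12h and 0.817 and 0.637 in T48h. The WT and KO libraries overlapped, and so did those of the rescues, but both rescues lay below both other groups. Tcf15 fell against KO by 1.80 ± 0.49 in T12h (adjusted p = 0.00577) and by 2.00 ± 0.50 in T48h (adjusted p = 0.0031). The rescues differed from each other by -0.21 ± 0.50 (adjusted p = 0.763). T12h differed from WT by -1.18 ± 0.49, which did not pass (adjusted p = 0.138). Against WT T48h was lower by a log2 fold change of -1.38 ± 0.50 (adjusted p = 0.0367), a call lost without WT library b (0.342), without either T48h library (0.0503 and 0.111) and with 1 technical column per library (0.0958).

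Meox1 (11:101877510-101894354, minus strand, 3 exons), a homeobox gene of the somites, had 0 counts in all WT and T12h libraries, 8 and 6 in KO and 25 and 14 in T48h. Set against 3 counts over the group with 0, T48h was 11.7-fold higher than WT (adjusted p = 0.00903) and 16.7-fold higher than T12h (adjusted p = 0.00542). KO was at least 3.09-fold higher than WT (adjusted p = 0.0422) and at least 4.40-fold higher than T12h (adjusted p = 0.0267). The ratio of T48h to KO was 3.79 with a counting interval of 2.01 to 7.55, and the test gave an adjusted p of 0.151 (0.036 and 0.0207 by limma on log2(FPKM + 1) and log2(FPKM + 0.1)). These calls rest on few counts. Without 1 library the KO against WT call was lost in every case (adjusted p 0.0767 to 0.191), as was the T12h against KO call (0.054 to 0.136). Both were also lost with no filter on low counts (0.0862 and 0.0561) and by limma on either FPKM scale (0.067 to 0.293), and the former by DESeq2 (0.059). The call against WT in T48h was lost without either WT library or T48h library a (0.0701 to 0.1), and that against T12h without either T12h library (0.0552 and 0.065).

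Meox2 (12:37108546-37179528, plus strand, 3 exons), the paralogue of Meox1, had 3 and 0 counts in WT and 0 in the other 6 libraries. A count of 0 over a group allows up to 0.0285 CPM in KO, 0.0302 in T12h and 0.0387 in T48h. Any difference between groups was not detectable at this depth.

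Foxc1 (13:31806646-31810635, plus strand, 1 exon), a forkhead factor, lay at 2.66 and 0.861 CPM in WT, 3.37 and 2.08 in KO, 0.500 and 0.771 in T12h and 14.3 and 16.3 in T48h. T48h stood apart from all others, and WT overlapped with KO. Foxc1 rose in T48h against KO by 2.48 ± 0.41 (adjusted p = 0.000148), against WT by 3.11 ± 0.44 (adjusted p = 5.63e-05) and against T12h by 4.60 ± 0.47 (adjusted p = 3.19e-06). It fell in T12h against KO by 2.12 ± 0.46 (adjusted p = 0.00119). KO and WT differed by 0.64 ± 0.43 (adjusted p = 0.209), a difference that passed without WT library a (1.67, adjusted p = 0.00675). T12h differed from WT by -1.49 ± 0.47 (adjusted p = 0.0536), which passed by DESeq2 (0.0124), with upper-quartile scaling (0.0472), with no filter on low counts (0.000303) and without WT library b (0.00519).

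Its close paralogue Foxc2 was the only one of the listed paraxial genes to rise in T48h against KO. Foxc2 averaged 0.318 CPM in WT, 0.0805 in KO, 0.375 in T12h and 5.29 in T48h, a rise of 5.75 ± 0.79 over KO (adjusted p = 2.63e-05). Of 22 paraxial and somite genes, 17 were tested in that comparison. Besides the rise of Foxc2, 7 fell and 9 did not pass, with a median of -1.11, where 34.2% of all genes rose and 33.2% fell. Lfng, a Notch modifier of the segmentation clock, averaged 31.3 CPM in WT, 8.81 in KO, 40.2 in T12h and 4.07 in T48h. Pcdh8, a protocadherin of forming somites, fell by 2.82 ± 0.35 (adjusted p = 9.62e-06) and Epha4, an Eph receptor also found in neural tissue, by 0.90 ± 0.09 (adjusted p = 1.27e-06). Tbx6, the T-box factor of presomitic mesoderm, averaged 1.07, 0.810, 0.759 and 0.445 CPM in WT, KO, T12h and T48h, and none of its tests against KO or WT in T48h passed. Msgn1, Ripply2 and Nkx3-2, which define presomitic mesoderm, somite borders and sclerotome, had 0 counts in every library. The summed level of the list was 175 and 179 CPM in WT and 65.4 and 72.6 in T48h. That sum was carried mostly by Epha4, which averaged 110 CPM in WT and 43.0 in T48h, and in WT also by Lfng. It thus says little about the other genes of the list.

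Prrx1 (1:163245119-163313650, minus strand, 5 exons) lay at 8.71 and 6.05 CPM in WT, 0.761 and 1.30 in KO, 1.80 and 2.40 in T12h and 13.3 and 14.2 in T48h. The groups did not overlap, with KO lowest and T48h highest. Prrx1 fell in KO against WT by 2.88 ± 0.32 (adjusted p = 3.57e-06) and rose in T48h against KO by 3.78 ± 0.32 (adjusted p = 2.59e-07). In T12h it rose over KO by 1.06 ± 0.32 (adjusted p = 0.0101) and lay below WT by a log2 fold change of -1.82 ± 0.30 (adjusted p = 0.0012). The T12h rise was lost without KO library a (adjusted p = 0.0912), without T12h library b (0.0726), with only those groups fitted (0.0876), with 1 technical column per library (0.0862) and by limma on log2(FPKM + 1) or log2(FPKM + 0.1) (0.188 and 0.0827). T48h was higher than WT by 0.90 ± 0.28 (adjusted p = 0.0177), a call lost without WT library b (0.217) and without either T48h library (0.0518 and 0.0695).

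Its paralogue Prrx2 was likewise lowest in KO and highest in T48h, at 9.52 CPM in WT, 0.380 in KO, 18.7 in T12h and 99.6 in T48h. In contrast to Prrx1, Prrx2 was above WT in T12h (0.98 ± 0.18, adjusted p = 0.00257). The difference between the paralogues was not tested. Over the 9 close paralogues listed, 7 were tested, and in T48h against KO 2 rose (Prrx2 and Foxc2), 3 fell (Msc, the paralogue of Tcf21, and Csf1r and Kit, receptors of the PDGF receptor family) and the median was -0.26. Msc had 98 and 89 counts in KO and 0 in both T48h libraries.

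Genes of mesenchyme were higher in T48h as a group. Of 24 listed genes 23 were found in the tables and 22 were tested. Against KO, 16 rose and 2 fell (Thy1 and Osr2), with a median of 3.14. Against WT, 18 rose and 1 fell (Mest), with a median of 2.86. Col1a1, a chain of type I collagen, averaged 5.74 CPM in KO and 553 in T48h (6.56 ± 0.18, adjusted p = 7.81e-12), and Fn1, fibronectin, 312 and 2246 CPM (2.85 ± 0.07, adjusted p = 4.81e-12). Zeb1, a repressor linked to the epithelial to mesenchymal transition, averaged 118 CPM in WT, 9.20 in KO, 129 in T12h and 151 in T48h, so it differed mainly by being low in KO. Col1a2 averaged 51.4, 4.93, 101 and 170 CPM and was also lowest in KO. Unlike Zeb1 it lay above WT in T12h (0.98 ± 0.10, adjusted p = 6.78e-05), and in T48h it was higher than WT by 1.73 ± 0.11 (adjusted p = 1.78e-08). Lum, Dcn and Fap, genes of mature fibroblasts, averaged at most 1.13 CPM in any group.

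In T48h, all 10 genes of the lateral plate and cardiac list rose against KO, with a median of 6.51. The summed level of the list was 114 to 286 CPM in the other 6 libraries and 2752 and 2779 CPM in T48h. Hand2, a helix-loop-helix factor of heart and limb, averaged 1.08 CPM in KO and 597 in T48h (9.03 ± 0.17, adjusted p = 9.38e-13). Among 10 nascent mesoderm genes, 8 rose and 1 fell (Kdr) in KO against WT, with a median of 3.57, and 1 rose (Kdr) and 3 fell (T, Eomes and Wnt3) in T48h against KO, with a median of -0.67. In T48h 8 of the 10 were higher than in WT and none lower, with a median of 3.10. The summed level of this list was 88.1 to 91.3 CPM in WT and KO, 132 and 128 in T12h and 322 and 340 in T48h, where Kdr alone averaged 290 CPM. The near-equal sums of WT and KO hide opposite changes. Kdr fell by 5.36 ± 0.18 in KO against WT (adjusted p = 6.02e-11), where the 8 genes rose. In T12h against KO, Kdr rose by 5.96 ± 0.18 (adjusted p = 2.15e-11) and was the only gene to rise, while 8 fell. Brachyury, T, averaged 0.116 CPM in WT, 4.01 in KO, 0.307 in T12h and 0.252 in T48h.

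**Figure D3:**
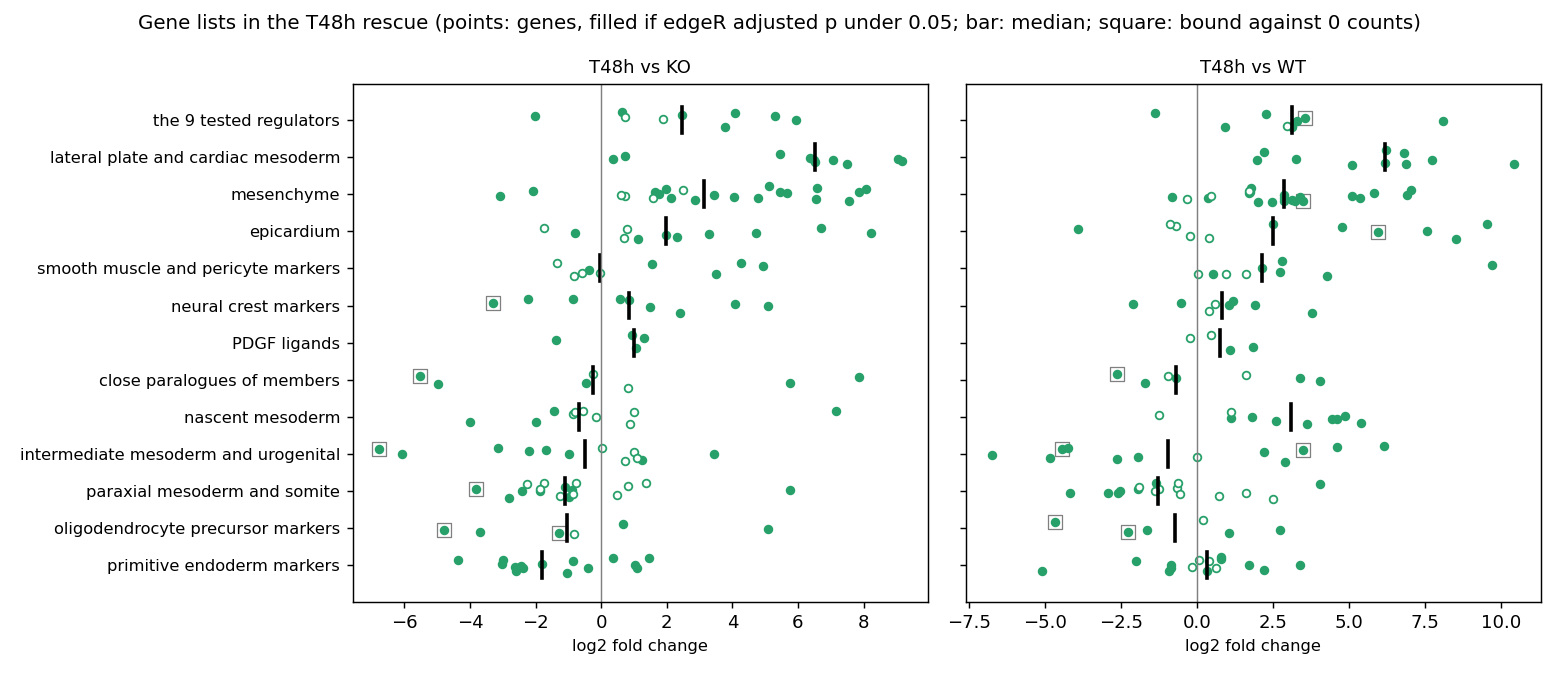
Log2 fold changes of the 9 tested regulators and of 12 gene lists in T48h against KO (left) and against WT (right), with 1 point per gene (filled: adjusted p under 0.05), a bar at each median and squares around bounds against a group with 0 counts. The lateral plate list has medians of 6.51 and 6.18, the mesenchyme list 3.14 and 2.86, and the paraxial list -1.11 and -1.31.

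Markers of other cell types that carry these genes were mixed for neural crest and oligodendrocyte precursors and mostly higher in T48h for fibroblasts. Of 9 neural crest markers, in T48h against KO 6 rose and 3 fell, with a median of 0.85. Sox10, which defines the lineage, averaged 4.22 CPM in WT, 0.258 in KO, 1.18 in T12h and 8.69 in T48h, an order shared with Prrx1. The summed level of this list was 88.1 and 90.8 CPM in KO, 103 and 109 in WT, 125 in each T12h library and 181 and 195 in T48h. Of 6 oligodendrocyte precursor markers, 2 rose and 3 fell, with a median of -2.26 (-1.06 with genes at 0 counts placed at their bounds), and the defining genes Olig1 and Olig2 had 0 counts in T48h, where Pdgfra was highest. Of 12 fibroblast markers, which feeder cells would carry, 10 were tested, 7 rose, 1 fell and the median was 3.64. Their sum was 198 to 301 CPM in the other libraries and 1511 and 1594 in T48h, and 8 of these 12 genes are also on the mesenchyme list. The part of neural crest or feeder cells in the members' values was not tested.

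The members' calls in each comparison are set here beside those of all genes tested. In KO against WT, 3 of 9 tested members rose (Pdgfra, Meox1 and Wt1) and 2 fell (Pdgfrb and Prrx1), where 64.1% of all genes passed, 31.7% higher and 32.4% lower. In T12h against KO, 2 rose (Pdgfrb and Prrx1) and 5 fell (Pdgfra, Foxc1, Tcf15, Meox1 and Wt1), where 64.8% of all genes passed, 32.8% higher and 32.1% lower. These shares of members passing are near those of all genes. The libraries of the groups did not overlap for 5 of 9 tested members in KO against WT and for 7 of 9 in T12h against KO, where this held for 83.4% and 83.3% of all genes. In T12h against WT, none rose and 3 fell (Pdgfrb, Wt1 and Prrx1), where 14% of all genes passed, 7.9% higher and 6.11% lower, and 7 of 9 did not overlap, where 59% of all genes did not.

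In T48h against KO, 6 rose (Pdgfra, Pdgfrb, Foxc1, Tbx18, Tcf21 and Prrx1) and Tcf15 fell, where 67.3% of all genes passed, 34.2% higher and 33.2% lower. The share of members passing in either direction, 7 of 9, was again near that of all genes. The members' median was 2.48, where that of all genes was 0.00. In T48h against WT, 7 rose (those 6 without Tbx18, and with Meox1 and Wt1) and Tcf15 fell, where 47.3% of all genes passed, 23.9% higher and 23.4% lower. In T48h against T12h, 8 rose and none fell, where 50.2% of all genes passed, 24.9% higher and 25.3% lower. The median there was 4.60, or 4.06 with Meox1 at its bound. The groups did not overlap for 9 of 9 tested members in T48h against KO, 9 of 9 in T48h against WT and 8 of 9 in T48h against T12h, where this held for 82.7%, 73.5% and 74.3% of all genes. Meox1 and Tbx18 passed the filter on low counts only through their T48h libraries. Their part in the T48h counts, medians and non-overlaps given here was thus favoured by the filter and adds no support. These comparisons share libraries and are not independent of one another.

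**Figure D4:**
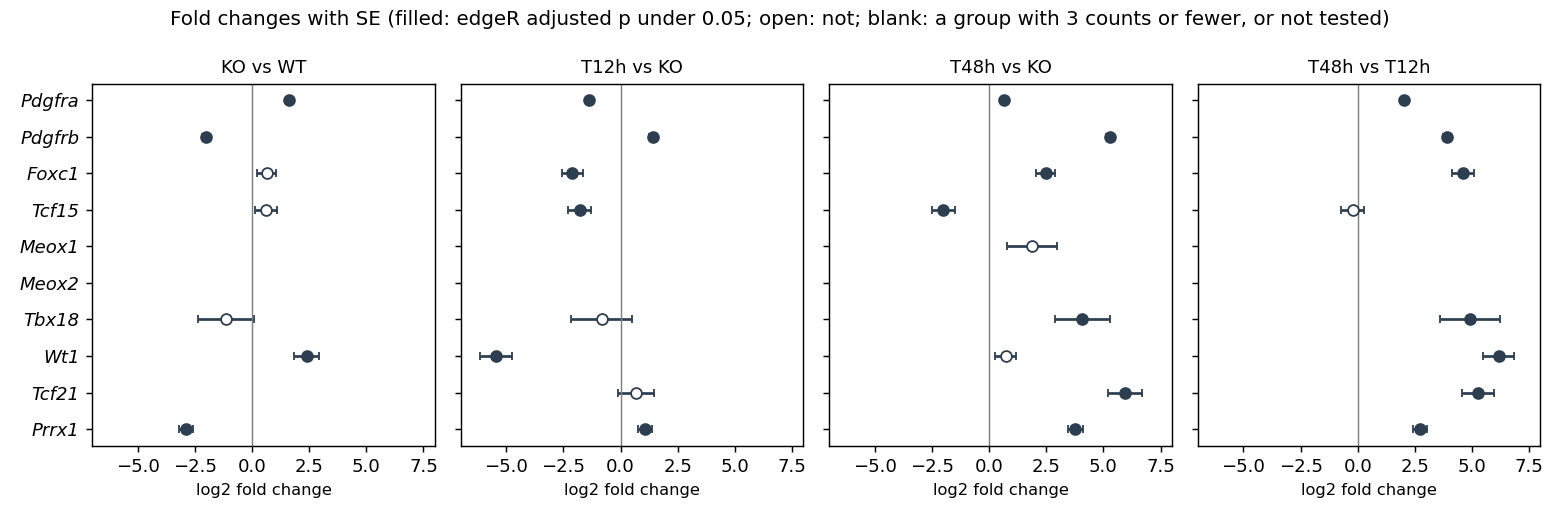
Log2 fold change of each member (points) with its SE (bars) in 4 comparisons, filled where the edgeR adjusted p is under 0.05. Pdgfra and Pdgfrb lie on opposite sides of 0 in KO against WT, and every drawn member but Tcf15 lies to the right of 0 in T48h against KO.

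Patterns over the 8 libraries differed among the members. As a description, the root mean square distance between log2 CPM values, after each gene's own mean was removed, was smallest between Pdgfra and Meox1 (0.634), Foxc1 and Meox1 (0.795) and Pdgfrb and Prrx1 (0.883), and largest between Tcf15 and Tcf21 (3.56). Among 11243 other genes, the closest to Pdgfra was Anxa2, an annexin, at a distance of 0.116, with 51.4, 145, 48.9 and 232 CPM in WT, KO, T12h and T48h. The closest to Pdgfrb were Smtnl2, a smoothelin-like gene (0.278), and Nexn, an actin-binding protein of muscle (0.327). The closest to Prrx1 was Tfap2b (0.228), an AP-2 factor of neural crest, with 7.60, 0.696, 1.75 and 11.5 CPM. Tcf21 was nearest to Sox18 (0.556) and Tal1 (0.866), factors of endothelium and blood, of which Tal1 averaged 52.7 CPM in T48h and at most 0.595 elsewhere. Wt1 was nearest to Gata2 (0.498), Tcf15 to Slc35f2 (0.283), Foxc1 to Fam163a (0.370), Meox1 to Emp2 (0.235) and Tbx18 to Pear1 (0.785). The distances share the same 8 libraries, and the prior count added before the logarithm shrinks the pattern of genes with few counts, such as Meox1.

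Several members overlap genes on the opposite strand in the GENCODE M21 annotation: Pdgfra, Meox1, Tbx18, Tcf21 and Prrx1. On the same strand, Pdgfra overlaps Mir7025, Meox2 overlaps Gm48617, and Prrx1 overlaps Gm26523 and Gm37644. The strand setting of the counting is not given in the sources used here. Reads of these partners may thus be among the members' counts and cannot be told apart from them here.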

How the data were processed

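RNA from 16 samples (4 groups, 2 biological duplicates, 2 technical runs) was sequenced from TruSeq libraries, as the labels' protocols state. The tools that the submitters' processing notes name are Cufflinks 2.2.1, TopHat2 2.1.1, deepTools and SAMtools 1.5, and the build is mm10. The annotation is not given in the sources used here.

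The deposited count table gives the authors' estimated counts per locus, per the file headers. The values show 1 factor per column, with 1 fragment worth 0.63 to 1.29, and 90.9% to 92% of values above 0 were whole multiples within 0.02 fragments. The factor was divided out, and counts were summed over technical columns and rounded. The other deposited table holds the authors' FPKM, used here for levels between genes and for alternatives on log2(FPKM + 1) and log2(FPKM + 0.1), which understate the change of low genes. Another 112 companion columns (confidence bounds, status and the like) were used in no test. The status columns served to leave out 8 loci with too many fragments.

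Columns name the group but neither duplicate nor run. Technical pairs were found by a chi-square over genes, at 1.6 to 1.83 per degree of freedom within pairs and 9.08 to 16.5 between. Of 28432 loci, 5143 had no name (3.15% to 6.18% of counts) and stayed out. Tests used edgeR 4.0.16 under R 4.3.3 (quasi-likelihood F-test, TMM, filterByExpr, Benjamini-Hochberg over 16130 genes), with 4 residual degrees of freedom and a biological coefficient of variation of 12.6%. DESeq2 1.42.0 and limma 3.58.1 were alternatives, with other scalings, no filter, only the groups compared, 1 technical column, counts with the factor kept, no genes of 1 chromosome, and each library left out. A fold against 0 counts is a bound against 3 counts over the group, with the counts of the other group taken as exact.

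The members and the 13 lists were chosen with earlier results of these data known. Named are all members, the genes closest in pattern to each (at least 5 CPM in the higher group), and up to 4 genes per list with the smallest adjusted p in T48h against KO. Wdr5, Rax and the other list genes named fall outside that rule and were chosen after their values were seen. Snai2, Sall1, Pdgfd, Erbb3 and Hand1 have several loci, of which the one with most counts was used.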

Additional observations from a re-analysis of the deposited data

How the results depend on the processing

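Of 741 values of single members under an alternative, 673 kept their direction and side of the threshold, 43 lost a call, 20 gained one and 5 changed sign, none of the 5 with a call in the value reported. Those 5 came from leaving out 1 library, over which Tbx18 ran from -6.31 to 1.74 in KO against WT, from -2.11 to 4.35 in T12h against KO and from -3.28 to 0.93 in T12h against WT, with the sign changed without WT library a (1.74 and 0.93) or KO library a (4.35). Tcf21 ran from -3.92 (without KO library a) to 6.18 in KO against WT and from -0.066 (without KO library b) to 6.72 (without KO library a) in T12h against KO. These fits rest on 32 counts or fewer per group, and folds against a group left with 0 counts depend on the prior count. In T48h against KO, 7 members were called in every case with a library left out and 7 to 9 under the other 10 settings.

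Leaving out 1 library in turn gave 8500 to 9511 called genes and 4 to 5 members in KO against WT, 8851 to 9660 and 5 to 6 in T12h against KO, 9857 to 10242 and 7 in T48h against KO, 5780 to 7008 and 5 to 8 in T48h against WT, and 6226 to 7391 and 6 to 8 between the rescues. The lowest member count in T48h against WT, 5, came without WT library b and without T48h library a. In T12h against WT, 1070 to 1515 genes passed where 2261 did with all libraries, with 1070 without WT library a, 1217 without T12h library a and 1316 without T12h library b. The 3 members called there became 2 to 3 with a library left out, 5 without a filter, and 1 by limma on either FPKM scale. The cause was not tested, beyond the fewer samples of a fit without a library. Upper-quartile scaling shifted the median of all genes by -0.14 in T48h against KO and -0.12 against WT.

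No paired analysis was possible because the columns carry no replicate number. With 2 libraries a group, differences in Meox1, Tbx18 and Tcf21 outside T48h, and that of Wt1 between T12h and WT, are limited by their counts.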

Other observations

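The low counts of some members were uneven between the technical columns of a library. For Tcf21 the total of 23 in KO library a came from 6 and 17 fragments in its 2 columns, and the total of 21 in T12h library a from 4 and 17. For Meox1, T48h library a had 8 and 17 fragments and library b 3 and 11. For Tbx18, KO library a had 10 and 3 fragments. In each of these libraries both columns held fragments.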
